A study of Mus musculus with 6 samples.

Results

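Glycogen synthesis and breakdown were followed through 9 genes: the glycogen synthases Gys2 and Gys1, Ugp2, the branching enzyme Gbe1, the liver phosphorylase Pygl, the phosphorylase kinase subunit Phka2 and the phosphatase-targeting subunits Ppp1r3b, Ppp1r3c and Ppp1r3g. Every row of the deposited signal table that carried one of these names was taken, which gave 14 probes of 55681 on the array, against 29862 distinct gene names in all. Gys2, Gys1, Ugp2, Gbe1 and Phka2 had 2 probes each, called a for the brighter and b for the dimmer, and the other members had 1. The members were chosen by name and not by their signal, though with earlier results of these data known.

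Livers were taken at day 3 of life from 3 wild-type mice and 3 Cugbp1 KO mice. Cugbp1 is the older name of Celf1, which encodes an RNA-binding protein acting in splicing, translation and mRNA decay. Total RNA was labelled with Cy3 and hybridised to 1-colour Agilent whole mouse genome arrays, 1 array per sample. Neither the labels nor the design text gives a strain, the targeted allele, litters or whether samples were pooled, so p-values measure only the spread between these 6 samples.

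Liver stores glucose as glycogen. UDP-glucose, made by Ugp2, is added to the growing chain by glycogen synthase, and Gbe1 moves short chain ends to make branches. Phosphorylase shortens the chains, and phosphorylase kinase switches phosphorylase on. Protein phosphatase 1, held on the glycogen particle by Ppp1r3 subunits, opposes that switch and turns the synthase on. In newborn mammals the glycogen stored before birth is drawn on within hours of delivery and is later rebuilt.

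The RefSeq promoter windows of GRCm38.p6, from 250 bases before to 50 bases after a listed start, covered 7 members with 8 windows; Gys2 and Ppp1r3b are named only. Windows are shown for Gbe1, the member with the lowest p-value between genotypes, and for Gys1, Ugp2 and Ppp1r3g, whose brighter or only probes had the highest SD over the arrays among the members. Capitals mark the short motif ACGTG, which is the core of hypoxia-response elements and of many E-boxes, the E-box letters CAGCTG bound by muscle transcription factors, and the CCAAT box. Both strands were searched, so reverse complements are in capitals too. The windows shown lie at chr16:70313699-70313998 on the plus strand for Gbe1, chr7:45434589-45434888 on the plus strand for Gys1, chr11:21371218-21371517 on the minus strand for Ugp2 and chr13:35967656-35967955 on the plus strand for Ppp1r3g.
Gbe1: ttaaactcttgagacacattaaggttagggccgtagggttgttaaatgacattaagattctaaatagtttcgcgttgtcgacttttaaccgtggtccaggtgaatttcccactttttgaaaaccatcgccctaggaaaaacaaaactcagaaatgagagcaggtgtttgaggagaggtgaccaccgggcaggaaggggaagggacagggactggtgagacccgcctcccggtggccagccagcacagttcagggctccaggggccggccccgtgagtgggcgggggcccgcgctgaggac
Gys1: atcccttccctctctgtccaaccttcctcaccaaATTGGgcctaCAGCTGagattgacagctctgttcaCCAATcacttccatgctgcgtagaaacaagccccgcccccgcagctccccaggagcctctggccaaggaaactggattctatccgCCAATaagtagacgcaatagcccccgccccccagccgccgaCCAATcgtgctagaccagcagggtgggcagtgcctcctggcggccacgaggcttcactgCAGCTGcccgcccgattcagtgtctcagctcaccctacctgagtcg
Ugp2: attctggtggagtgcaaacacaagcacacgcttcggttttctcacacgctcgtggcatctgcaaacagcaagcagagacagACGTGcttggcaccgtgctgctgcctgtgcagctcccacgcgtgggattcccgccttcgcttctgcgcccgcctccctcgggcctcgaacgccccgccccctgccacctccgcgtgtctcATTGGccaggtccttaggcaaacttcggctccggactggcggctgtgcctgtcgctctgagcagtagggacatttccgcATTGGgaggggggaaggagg
Ppp1r3g: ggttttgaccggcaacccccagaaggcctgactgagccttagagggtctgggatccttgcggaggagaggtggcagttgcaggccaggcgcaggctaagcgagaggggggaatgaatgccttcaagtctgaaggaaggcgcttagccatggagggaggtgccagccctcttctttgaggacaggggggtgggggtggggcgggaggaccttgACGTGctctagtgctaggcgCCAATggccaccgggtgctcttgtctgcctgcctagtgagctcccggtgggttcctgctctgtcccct

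The Gbe1 window held none of these letters. The Gys1 window held 2 copies of CAGCTG and 4 of the CCAAT box. Ugp2 has 2 windows, and the one around the outermost start of the gene is shown. It held 1 copy of ACGTG and 2 CCAAT boxes, and the Ppp1r3g window held 1 of each. Of the 32851 windows of the same length, 16.3% held CAGCTG, 19.6% held ACGTG and 37.4% held CCAAT. The longer motifs CACGTG, which overlaps ACGTG, and TGACGTCA stood in 7.15% and 1.79% of all windows. Neither was present in the 4 windows shown, and CACGTG stood once in the Ppp1r3c window. The Ugp2 window not shown, at chr11:21370580-21370879, held 1 CAGCTG and neither of the other marked motifs. These matches are descriptions of the sequence and carry no measurement.

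Before the members are described, the arrays themselves need an account. The 75th percentile of the intensity ran from 350.2 on knockout 1 to 534.8 on knockout 2, and every array was scaled by it, so that levels below are scaled signal intensities and differences are on the log2 scale, knockout minus wild-type. The Celf1 probe A_51_P204845 read 4250, 3699 and 3554 in wild-type 1, 2 and 3 and 525.1, 395.3 and 497.2 in knockout 1, 2 and 3, a difference of -3.03 ± 0.22 (SE, n = 3 per genotype; adjusted p = 0.0462, limma). Another Celf1 probe, A_55_P1993698, differed by -3.55 ± 0.53 and did not pass (adjusted p = 0.553, limma). Hepatocyte markers (10 of 10 detected on every array) summed to between 2312000 and 2456000 on the wild-type arrays and between 1888000 and 2315000 on the knockout arrays. Of these markers, Ttr and Ahsg were lower on every knockout array than on every wild-type array, and the others overlapped. The brightest markers weigh most in this sum, and dimmer ones were less even. Hnf4a (19090) and Apob (19970) were lowest on wild-type 3, while Tat ran from 696.5 on knockout 1 to 8843 on wild-type 3. Skeletal muscle markers (10 of 15 detected on every array) summed to 2785, 3042 and 112000 in wild-type 1, 2 and 3 and to 2987, 78470 and 518400 in knockout 1, 2 and 3, so wild-type 3, knockout 2 and knockout 3 stood apart. Exocrine pancreas markers (8 of 14 detected on every array) summed to 259900 on knockout 2 and to between 4430 and 13140 on the other arrays. Erythroid markers (10 of 10 detected on every array) summed to 88010 on knockout 2 and to between 285100 and 364700 on the other arrays. The protocol speaks of male KO mice, but the Y-linked Ddx3y read 1634 on wild-type 1 and 1649 on knockout 1 against 2.155 to 3.712 on the remaining 4 arrays. Xist, made from the inactive X chromosome, read 1073 to 1825 on those 4 arrays and 3.407 and 4.335 on wild-type 1 and knockout 1. Each genotype therefore had 1 array with Y-linked signal and 2 arrays with Xist signal.

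No member probe passed adjusted p 0.05 between genotypes (limma, Benjamini-Hochberg over 37121 probes tested, 0.00808% of which passed), and 1 of 14, Gbe1 probe a, had an unadjusted p under 0.05, against 2.95% of all probes tested. All 14 member probes were detected, that is above the 30th percentile of the array, on all 6 arrays and were tested. The knockout arrays lay wholly above or below the wild-type arrays for 3 member probes, Gbe1 a and Ppp1r3b below and Phka2 a above; over all probes tested this share was 6.62%. Knockout was higher for 5 member probes and lower for 9, with a median difference of -0.09, beside 49.6% higher and a median of -0.002 over all probes. With no scaling between arrays, which shifts the median of all probes to 0.11, the members split into 7 higher and 7 lower, and the genotypes overlapped for all of them. All adjusted p-values of members were 1. Over the whole array 3 probes passed, Celf1 probe A_51_P204845 and that of Scp2d1 among them. With the replicate number as a block 0 passed (1875 at an unadjusted p under 0.05, limma).

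**Figure D1:**
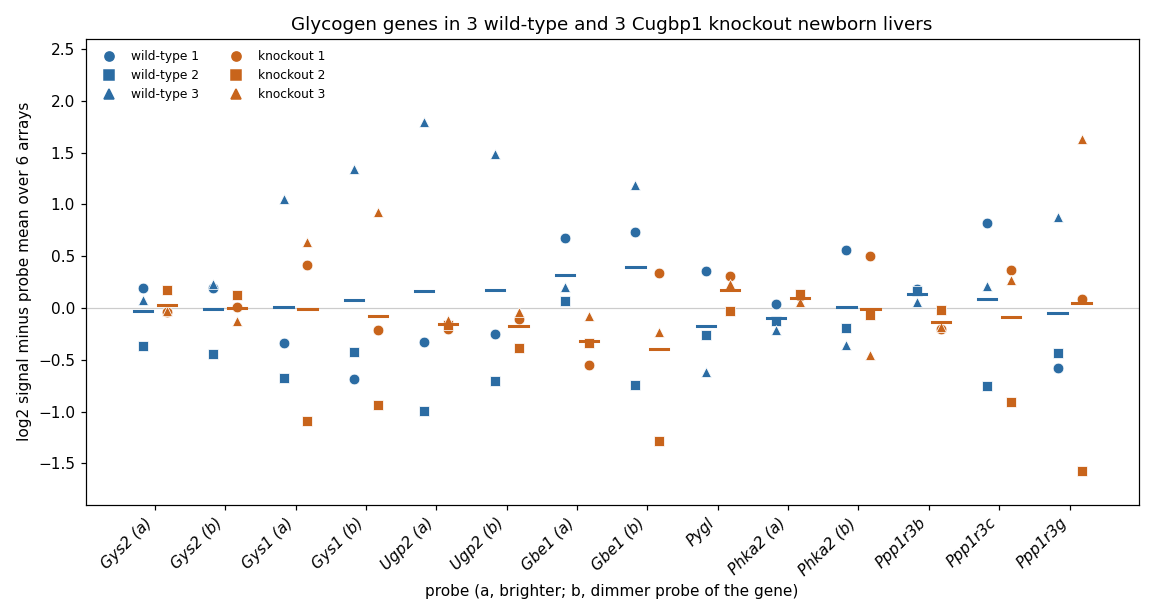
Each of the 14 probes of the 9 glycogen genes is shown as log2 scaled signal minus the probe's mean over the 6 arrays (vertical axis), with 1 point per array and a bar for each genotype's mean. The genotypes are apart for Gbe1 (a), Phka2 (a) and Ppp1r3b, while Ugp2 has a single high array, wild-type 3, and Ppp1r3g spans the widest range.

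Among the synthesis genes, Gys2, which encodes the liver form of glycogen synthase, was at nearly the same level in both genotypes. Its probe a (A_55_P1992555) read 25710, 17400 and 23640 in wild-type 1, 2 and 3 and 21820, 25290 and 22030 in knockout 1, 2 and 3. Wild-type 2 was the lowest array and the genotypes overlapped. The difference was 0.07 ± 0.24 (SE, n = 3 per genotype; limma, unadjusted p = 0.788 and adjusted p = 1), with a 95% interval of the fold from 0.706 to 1.55. Probe b (A_55_P2175545) read 5284, 3388 and 5414 against 4648, 5024 and 4234, again with wild-type 2 lowest, and differed by 0.01 ± 0.26. The highest array of Gys2 probe a was 1.48-fold over the lowest, and the sign of this small difference turned when wild-type 2 was left out (-0.10). The gene lies at 142422612 to 142473130 on chromosome 6 of GRCm38.p6.

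Gys1, the glycogen synthase of muscle and most other tissues (chromosome 7, 45434839 to 45456617), varied between arrays of both genotypes. Its probe a (A_55_P1982883) read 1012, 802.8 and 2668 in wild-type 1, 2 and 3 and 1707, 602.3 and 1994 in knockout 1, 2 and 3. Wild-type 3 and knockout 3 were the highest arrays of their genotypes. Probe b (A_55_P2026315) read 219.8, 263.8 and 895.8 against 304.7, 184.7 and 673.1 and put wild-type 3 and knockout 3 on top as well. The differences were -0.03 ± 0.61 and -0.15 ± 0.67 (adjusted p = 1 for both, limma). The intervals of the fold ran from 0.356 to 2.71 for probe a and from 0.297 to 2.73 for probe b, and neither sign held in all alternatives. Without wild-type 3 the 2 differences were 0.50 and 0.48.

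Wild-type 3 and knockout 3 were also 2 of the 3 arrays with high skeletal muscle marker sums. On the other one, knockout 2, both Gys1 probes were at their lowest. Knockout 1, with a muscle sum of 2987, read 1707 for probe a, nearer to knockout 3 than to wild-type 1 and 2. For probe b it read 304.7, nearer to wild-type 1 and 2 (219.8 and 263.8) than to knockout 3 (673.1). Knockout 2 also had the lowest erythroid and the highest exocrine pancreas marker sum. The parts of muscle, erythroid and pancreas RNA in the Gys1 signal were not tested. In whole liver RNA, fewer cells of a type and less RNA per cell cannot be told apart.

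Ugp2, the enzyme that makes UDP-glucose (chromosome 11, 21321126 to 21371267), had 1 array far above the others. Its probe a (A_55_P2021049) read 7776, 4898 and 33970 in wild-type 1, 2 and 3 and 8494, 8714 and 9024 in knockout 1, 2 and 3. Wild-type 3 was 3.77-fold over the next array, while the 3 knockout arrays were almost equal (SD 0.04 on the log2 scale). Probe b (A_51_P475580) repeated the pattern with 2766, 2018 and 9183 against 3054, 2515 and 3187. The differences of -0.32 ± 0.68 and -0.36 ± 0.55 (adjusted p = 1) rested on wild-type 3, and without it they became 0.50 and 0.30. Wild-type 3 also had the highest cardiac muscle marker sum, 12920 against 201.5 to 3269 on the other arrays. All 5 cardiac markers were detected on every array. The adipocyte marker sum (2 of 5 markers detected on every array) was also highest there, 30780 against 5167 to 8994, but 30620 of it came from Fabp4 alone. Retn was also highest on that array, at 57.27 against 25.02 to 46.63. Adipoq (3.873), Plin1 (9.514) and Cidec (87.93) were not highest on that array. The part of either tissue in the Ugp2 signal was not tested.

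Gbe1, the branching enzyme, had the lowest p-value of the members. Its probe a (A_51_P273684; gene on chromosome 16, 70313949 to 70569720) read 8237, 5399 and 5916 in wild-type 1, 2 and 3 and 3514, 4078 and 4885 in knockout 1, 2 and 3. Every knockout array was below every wild-type array, and knockout stood at 0.643 of wild-type. The difference was -0.64 ± 0.26 (95% interval -1.26 to -0.015; unadjusted p = 0.0461, adjusted p = 1). The gap between same-numbered arrays was -1.23 for number 1, the arrays with Y-linked signal, and -0.41 and -0.28 for numbers 2 and 3. Leaving out any single array put the unadjusted p between 0.05002 and 0.163, leaving out both arrays numbered 1 gave a difference of -0.34, and with the replicate number as a block the unadjusted p was 0.0705.

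Gbe1 probe b (A_55_P2129222) was also lower on average in knockout, at 282.5, 101.4 and 386.9 against 214, 69.51 and 144. Wild-type 2 was below knockout 1 and knockout 3, so the genotypes overlapped, and the difference was -0.79 ± 0.61 (limma, unadjusted p = 0.237 and adjusted p = 1). With the replicate number as a block the unadjusted p of probe b was 0.0401. For probe b knockout was lower in each of the 3 same-numbered pairs of arrays, a pairing that was taken from these data. For probe a the same follows from the lack of overlap, whatever the pairing.

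**Figure D2:**
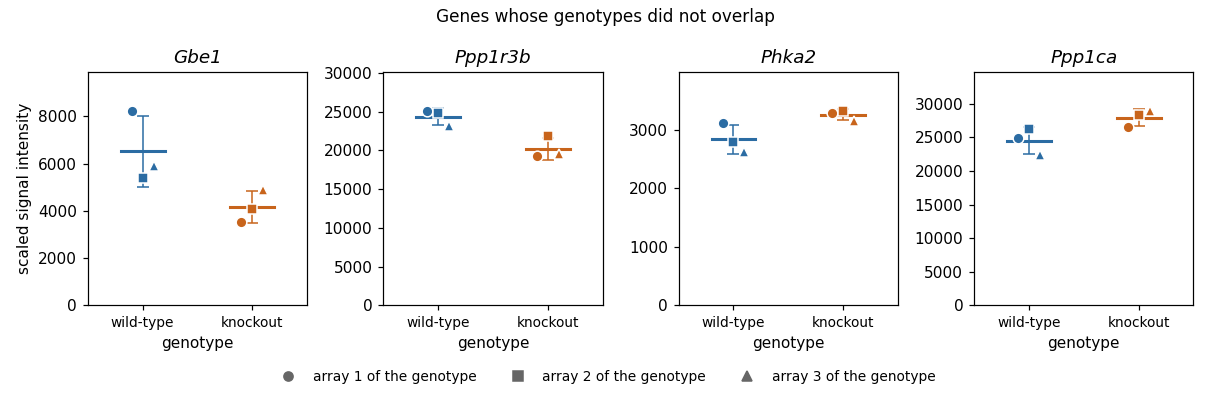
Scaled signal intensity (linear vertical axes from 0) of Gbe1, Ppp1r3b and Phka2, and of Ppp1ca from the list of other glycogen genes, with 1 point per array, the mean of the 3 arrays and bars of 1 SD. Gbe1 and Ppp1r3b are lower and Phka2 and Ppp1ca higher on all 3 knockout arrays, and the gap is widest in fold for Gbe1.

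Of the breakdown genes, Pygl encodes the phosphorylase of liver (chromosome 12, 70190815 to 70227683). Its probe A_51_P452779 read 57540, 37480 and 29220 in wild-type 1, 2 and 3 and 55640, 43750 and 52500 in knockout 1, 2 and 3. The wild-type arrays spread 1.97-fold from wild-type 3 to wild-type 1, and all knockout arrays fell inside that range. The difference was 0.34 ± 0.30 (limma, unadjusted p = 0.299 and adjusted p = 1), with an interval of the fold from 0.768 to 2.09. Without wild-type 3 it was 0.12.

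Phka2 encodes the regulatory alpha subunit of phosphorylase kinase in liver (chromosome X, 160501904 to 160598879). Its probe a (A_55_P2140288) read 3110, 2787 and 2624 in wild-type 1, 2 and 3 and 3290, 3326 and 3151 in knockout 1, 2 and 3. All knockout arrays were above all wild-type arrays, by a small margin, and this was the least variable member probe, with 1.27-fold from the lowest to the highest array. The difference of 0.20 ± 0.20 did not pass (limma, unadjusted p = 0.353 and adjusted p = 1). Probe b (A_52_P187217) read 74.29, 44.12 and 39.36 against 71.35, 48.04 and 36.62, and its difference was -0.01 ± 0.36. The genotypes of probe b overlapped. This probe was dim, and with detection set at the 50th percentile it was no longer tested.

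The 3 targeting subunits bring protein phosphatase 1 to glycogen. Ppp1r3b, the main liver form (chromosome 8, 35375694 to 35388139), was lower on all knockout arrays. Its probe A_55_P1967133 read 25100, 24780 and 23100 in wild-type 1, 2 and 3 and 19230, 21800 and 19500 in knockout 1, 2 and 3. Knockout stood at 0.829 of wild-type, and the 2 genotypes did not overlap. The difference was -0.27 ± 0.20 (limma, unadjusted p = 0.217 and adjusted p = 1), with gaps of -0.38, -0.19 and -0.25 between same-numbered arrays and an interval of the fold from 0.597 to 1.15.

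Ppp1r3c, a targeting subunit found in many tissues (chromosome 19, 36731731 to 36736604), followed the array number more than the genotype. Its probe A_52_P30451 read 3880, 1300 and 2548 in wild-type 1, 2 and 3 and 2828, 1173 and 2649 in knockout 1, 2 and 3. The arrays numbered 2 were the lowest of both genotypes. The difference was -0.18 ± 0.51 (adjusted p = 1).

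Ppp1r3g, a targeting subunit of liver known in mouse to rise with fasting (chromosome 13, 35958824 to 35970388), was the most variable member. Its probe A_51_P155873 read 1636, 1808 and 4523 in wild-type 1, 2 and 3 and 2599, 822.3 and 7620 in knockout 1, 2 and 3, a 9.27-fold range. Knockout 3 was the highest array and knockout 2 the lowest, so the widest gap lay within the knockout group. The difference was 0.09 ± 0.82 (adjusted p = 1), and the interval of the fold from 0.275 to 4.14 left the direction undetermined at this number of arrays. Wild-type 3 and knockout 3 were again the highest of their genotypes. The parts of muscle, erythroid and pancreas RNA in this signal were not tested, and the labels do not state the feeding state of the pups.

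Exact two-sided permutation tests over the 6 arrays cannot go below p = 0.1 with 3 against 3. That smallest value was reached by Gbe1 probe a, Phka2 probe a and Ppp1r3b, and the other 11 member probes gave 0.4 to 1. Taken as single probes, the members had a higher median SD between arrays than all probes tested, with Gys2, Gys1, Ugp2, Gbe1 and Phka2 each entering with both probes. The median SD over the 6 arrays was 0.56 for member probes and 0.39 for all probes tested, and the median standard error of the difference was 0.44 against 0.31. With only the brighter or sole probe of each member, the middle SD was that of Gbe1 probe a, 0.43, nearer to that of all probes. The variation was uneven, from 0.14 for Phka2 probe a, 0.17 for Ppp1r3b and 0.21 for Gys2 probe a to 0.94 for Ugp2 probe a and 1.14 for Ppp1r3g.

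**Figure D3:**
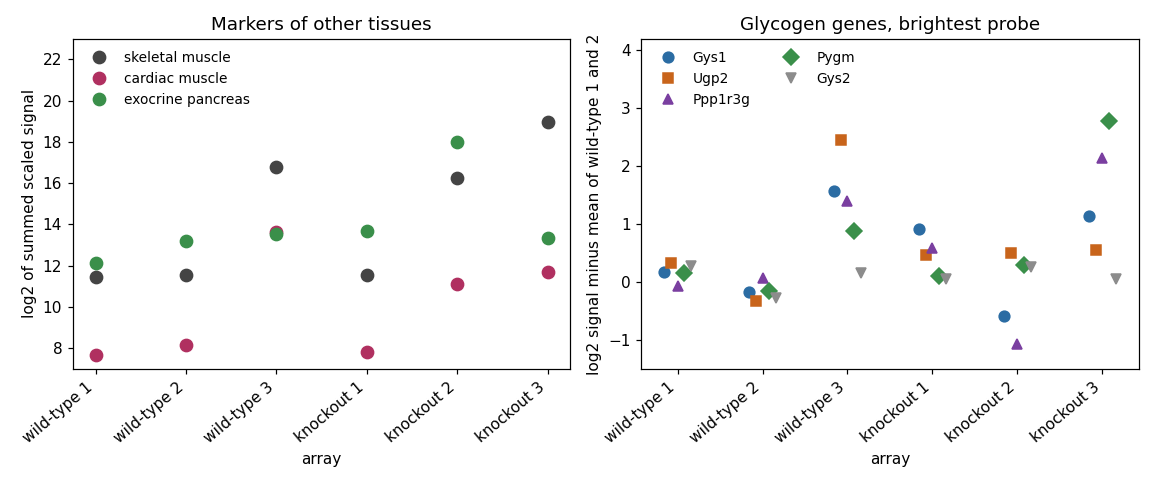
Left, log2 of the summed scaled signal of skeletal muscle, cardiac muscle and exocrine pancreas markers on each array; right, log2 signal of Gys1, Ugp2, Ppp1r3g, Pygm and Gys2 minus the mean of wild-type 1 and 2. Muscle markers are high on wild-type 3, knockout 2 and knockout 3. Ppp1r3g is high on wild-type 3 and knockout 3. Gys1 probe a is high on wild-type 3, knockout 3 and knockout 1, where muscle markers are low. Ugp2 is high on wild-type 3 and Pygm on knockout 3, while Gys2 stays near 0 on all arrays.

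The other glycogen genes were taken from a list of 23, of which 20 were tested; Epm2a, Ppp1r3a and Ppp1r3e were not. Each gene was represented by its brightest probe. Knockout was higher for 11 and lower for 9, with a median difference of 0.10, and 0 passed the adjusted threshold (1 at an unadjusted p under 0.05, limma). With no scaling the split was 13 higher and 7 lower, beside 66.4% of all probes higher at that setting. Without wild-type 3, and also without knockout 2, it was 13 higher and 7 lower. Without knockout 3, and also without both arrays numbered 3, it turned to 9 higher and 11 lower. Over all alternatives the median difference of this list lay between -0.058 and 0.215, so its sign did not hold.

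In the order of their roles, the primer protein of the glycogen chain, Gyg, differed by -0.12 ± 0.25 and did not pass (adjusted p = 1).

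The phosphorylases of other tissues varied strongly. Pygm, the muscle phosphorylase, read 550.4, 447.2 and 911.7 in wild-type 1, 2 and 3 and 531.7, 610.9 and 3424 in knockout 1, 2 and 3. Knockout 3, the array with the highest skeletal muscle sum, was 3.76-fold over the next, and without it the difference turned from 0.77 ± 0.73 to -0.09. Pygb, the phosphorylase first described in brain, differed by 0.58 ± 0.52. Phkg2, the catalytic phosphorylase kinase subunit of liver, differed by 0.18 ± 0.26. Nhlrc1, the ubiquitin ligase malin, read 243.5, 162.2 and 414.8 against 77.49, 212 and 106.7 and differed by -1.08 ± 0.49 (unadjusted p = 0.0641, adjusted p = 1), with wild-type 2 below knockout 2. Ppp1ca, a catalytic subunit of protein phosphatase 1, was slightly higher on all knockout arrays, at 24900, 26310 and 22330 against 26510, 28350 and 28970, and differed by 0.19 ± 0.20 (limma, unadjusted p = 0.375 and adjusted p = 1).

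**Figure D4:**
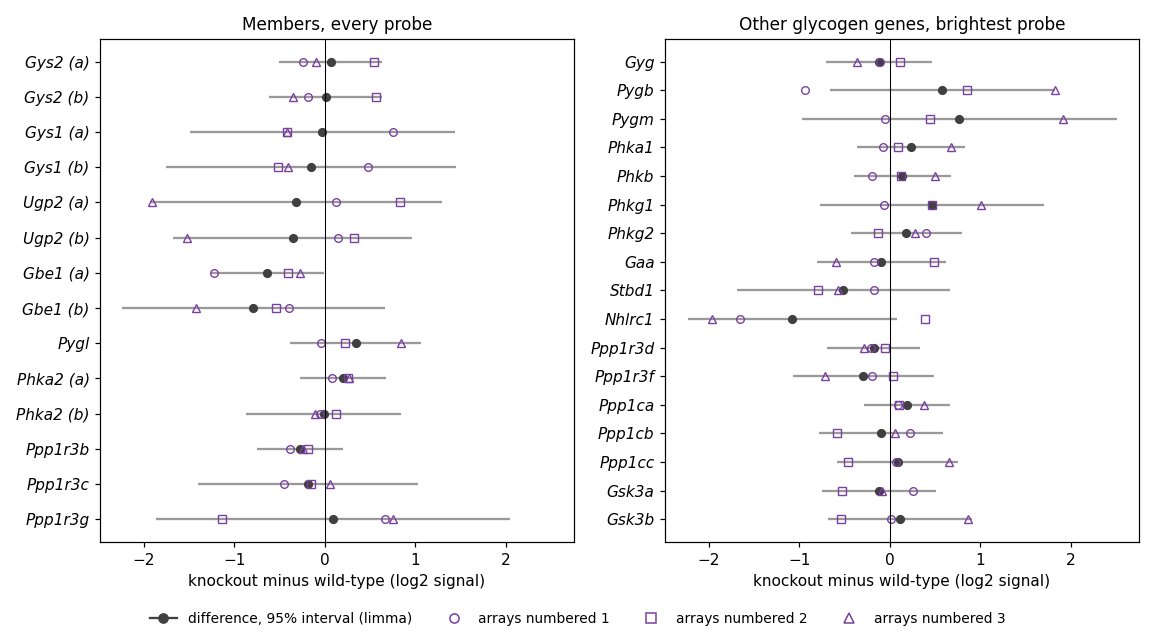
Knockout minus wild-type on the log2 scale (horizontal axis) for every member probe (left) and for the brightest probe of other glycogen genes (right); filled points and lines give the difference and its 95% interval from limma, and open symbols the gap between arrays of the same number. Of the probes shown, the interval of Gbe1 (a) is the one that leaves out 0, and it ends at -0.015.

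Genes of glucose entry and release, which feed and drain the glycogen pool, were lower in knockout for 9 of 11 and higher for 2, with a median difference of -0.26 beside -0.002 over all probes, and 0 passed (0 at an unadjusted p under 0.05, limma). Over the 21 alternatives that median lay between -0.57 and -0.005. The split was less one-sided without knockout 1, and also without knockout 2, at 6 lower and 5 higher each time. G6pc, the catalytic subunit of glucose 6-phosphatase, ranged 13.6-fold between arrays, from 4689 on wild-type 3 to 63750 on wild-type 2. It differed by -0.28 ± 0.96. Slc2a2, the liver glucose transporter, differed by 0.23 ± 0.40, and its sign turned without wild-type 3 (-0.18).

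Of 15 genes that carry hormone and kinase signals to glycogen, 10 were higher and 5 lower in knockout, with a median of 0.07, and 0 passed (0 at an unadjusted p under 0.05, limma). Gcgr, the glucagon receptor, read 17220, 16380 and 5993 in wild-type 1, 2 and 3 and 10170, 21890 and 10900 in knockout 1, 2 and 3. Wild-type 3 was again the array apart, here the lowest, and the difference of 0.17 ± 0.51 became -0.32 without it.

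The probes whose pattern over the 6 arrays was closest to Gys2 probe a, among 23078 candidates, were those of Abraxas1, Hmces and Slc24a3, with mean absolute differences of 0.04 on the centred log2 scale for each. For Pygl, among 20309 candidates, they were Casp9, Spa17 and Dut, with 0.05 for each. These are likenesses over 6 arrays only.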

How the data were processed

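Total RNA of 3 wild-type and 3 Cugbp1 KO livers was measured on 1-colour arrays. A deposited table holds 1 linear intensity per probe and array. The scanner software was Agilent Feature Extraction, per the submitters' processing notes, with the scanner column and background handling not stated there. A deposited table of log2 values equalled quantile-normalized log2 intensities minus each probe's median within 0.01 for at least 99.959% of probes per array; their column medians ran from -0.011 to 0.005. No flags came with the table, so saturation and background were not judged. Positions of probes along transcripts are not analysed here.

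Each array was scaled by its 75th percentile to the mean of the 6 percentiles, floored at 1 and taken to log2. A probe was tested where it lay above the 30th percentile of its array on all 3 arrays of a genotype. Knockout was compared with wild-type with limma 3.58.1 in R 4.3.3 (lmFit and eBayes, two-sided, Benjamini-Hochberg, threshold 0.05); the fit was tested on simulated data. Probes of 1 gene are not replicates. The number of arrays limits the precision. Members, lists and tests were chosen with earlier results of these data known; all member probes are named, as are genes past the threshold, and listed pathway genes by role. A few genes are counted and not reported here. Pgm1 and Pgm2 are counted and not described, because the gene table lists each symbol as a synonym of the other.

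Same-numbered arrays deviated together from their group means (r = 0.36, 0.268 and 0.293 over all probes tested), so the numbers were treated as pairing the arrays in an alternative; this pairing comes from the data and not from the labels. There were 21 alternatives of scaling, floor, filter, variance model, block and arrays left out. Positions and promoter windows come from RefSeq on GRCm38.p6.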

Additional observations from a re-analysis of the deposited data

How the results depend on the processing

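In all 21 alternatives 0 member probes passed, and the lowest adjusted p was 0.481 (Gbe1 probe a with array weights). Gbe1 probe a, Pygl, Phka2 probe a and Ppp1r3b kept their sign in all 21, and the other 10 member probes turned in at least 1. Of all probes, 3 passed; the count was 1 with no scaling, 0 with a floor of 16 (1067 at unadjusted p under 0.05), 0 with no detection filter (1721), 1 with one probe per gene, 13 with array weights, 0 with the replicate block (1875), 0 without pair 1, 2 or 3 (1473, 1584 and 1022), 0 without wild-type 3, knockout 2 and knockout 3 (2829), and 0 to 1 without single arrays. The replicate block otherwise changed no call. The 3 member probes without overlap became 0 with no scaling, 6 without pair 2, 8 without wild-type 3, knockout 2 and knockout 3, and 3 to 5 without single arrays; fewer arrays overlap less often by construction, and the shares over all probes were then 28.9% without pair 2, 73.8% without the 3 arrays and 12.9% to 20% without single arrays.

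Signs that turned were as follows; the causes were not tested. With median scaling Gys2 probe b was -0.011. With no scaling Gys1 probe a was 0.087 and Phka2 probe b 0.10, less than the shift of all probes. With array weights Gys2 probe b was -0.044, Gys1 0.75 and 0.96, Ugp2 0.17 and 0.11, Ppp1r3c 0.041, Gyg 0.075, Slc2a2 -0.19 and Gcgr -0.35. Without pair 1 Phka2 probe b was 0.009, Ppp1r3g -0.19 and G6pc 0.19. Without pair 2 Gys2 was -0.17 and -0.27, Gys1 0.17 and 0.03, and G6pc 0.38. Without pair 3 Gys1 probe a was 0.17, Ugp2 0.48 and 0.23, Phka2 probe b 0.032, Ppp1r3g -0.23, Gyg 0.005, Pygb -0.038, Slc2a2 -0.063 and Gcgr -0.17. Without wild-type 3, knockout 2 and knockout 3, Gys1 was 0.92 and 0.34, Ugp2 0.46 and 0.37, Gbe1 probe b 0.34, Phka2 probe b 0.32, Ppp1r3c 0.33, Pygb -0.81, Slc2a2 -0.33 and Gcgr -0.72. Without single arrays the differences that turned ranged as follows: Gys2 probe a -0.10 to 0.18, Gys2 probe b -0.21 to 0.13, Gys1 probe a -0.37 to 0.51, Gys1 probe b -0.65 to 0.48, Ugp2 probe a -0.90 to 0.50, Ugp2 probe b -0.80 to 0.30, Phka2 probe b -0.27 to 0.27, Ppp1r3c -0.61 to 0.23, Ppp1r3g -0.70 to 0.91, Gyg -0.22 to 0.065, Pygm -0.092 to 1.25, Phkg2 -0.007 to 0.32, G6pc -1.19 to 0.69, Slc2a2 -0.18 to 0.43 and Gcgr -0.32 to 0.44.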
